A study of Trichoderma reesei with 24 samples.

Results

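Mycelium of a *T. reesei* strain without *nsd3* was compared with WT mycelium after 8 h on cellulose, the earlier of the cellulose time points of the study. The comparison used 6 of the 24 RNA-Seq libraries of the series, 3 of the Δ*nsd3* strain and 3 of WT. WT is TU6, a uridine auxotroph that descends from QM9414, and every library of the series has this background. The Δ*nsd3* strain was made in TU6 with CRISPR-Cas9 by replacing *nsd3* with the *pyr4* marker, and a single transformant was sequenced, so the loss of *nsd3*, the regained *pyr4* and any other change of that transformant cannot be told apart. The study added uridine to cultures where needed and does not say to which, so a difference in medium between the strains cannot be told apart either. Both strains were grown for 24 h on glycerol, washed and moved to medium with cellulose as the carbon source, and the libraries of both strains on glycerol (24 h) and after 48 h on cellulose serve below to place the 8 h values in time. The labels call the 3 libraries of a group replicates without saying whether they came from separate cultures, so p-values measure the spread between these libraries.

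*T. reesei* is a filamentous ascomycete that degrades plant cell walls by secreting cellulases and hemicellulases. Cellulose itself cannot enter the cell. Small amounts of enzyme release soluble sugars such as cellobiose, which transporters carry into the hypha, and sophorose, a disaccharide that β-glucosidases can form from cellobiose, is a strong inducer of the enzyme genes. Xyr1 is the main activator of these genes, and Cre1 represses them when easily used sugars are present. Nsd3 is a zinc finger transcription factor and the homolog of NsdC, which is known from *Aspergillus* as a regulator of development. Mycelium that has been moved from glycerol to cellulose has to switch from a soluble carbon source to one that must first be degraded, so an 8 h sample catches the early part of that switch.

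Values are given as TPM (reads per gene corrected for gene length and library size) that were rescaled between libraries by the median of ratios over 7681 genes, and are called rescaled TPM. The factors were 1.19, 1.08, and 1.002 for Δ*nsd3*, against 1.33, 1.22, and 1.09 for WT. Depth, read off the spacing of the lowest TPM values, came to 21.0, 21.1, and 34.7 M reads for Δ*nsd3*, against 45.9, 36.4, and 32.7 M for WT. Libraries of the same strain correlated across genes by 0.984 to 0.993, and libraries of different strains by 0.894 to 0.926. The factors were larger for WT, so the typical gene had a higher deposited TPM there. The single gene *hfb2* held 2.83, 3.82, and 3.06% of all listed TPM in Δ*nsd3*, against 15.9, 17.1, and 18.0% in WT. Fold changes are differences of log2(rescaled TPM + 1), Δ*nsd3* minus WT, which understates the change of genes with low TPM. A gene is called higher or lower in Δ*nsd3* when its log2 fold change is 1 or more in size and its adjusted p-value is below 0.05. These rules called 10.5% of the 7904 genes tested higher and 5.97% lower, so that 63.8% of the calls were higher. Without the rescaling 53.0% of the calls were higher, and the median over all genes moved to −0.15, against −0.01 with it. At an adjusted p-value below 0.05 alone (limma), 1961 of the 7904 genes were higher and 1774 lower, so passing it without the fold threshold was common. In RNA from whole mycelium, fewer cells of a kind and less RNA per cell cannot be told apart.

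Reads of the deleted gene were nearly absent from the Δ*nsd3* libraries. *nsd3* (TRIREDRAFT_75672) had 0.0731, 0, and 0.0349 rescaled TPM in Δ*nsd3*, against 38.6, 74.7, and 149 in WT, which corresponds to 3, 0, and 2 estimated reads in Δ*nsd3* against 3884, 5515, and 8954 in WT. The WT level was 2134-fold that of Δ*nsd3* (95% interval 914 to 6573, counting error only), and the fitted log2 fold change of −6.21 depends on the pseudocount. The *nsd3* level within WT itself was uneven, with replicate 3 at the highest value and replicate 1 at the lowest.

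A stretch of 20 genes that follow each other in the reference annotation was also nearly without reads in Δ*nsd3*. Summed over the stretch, the estimated reads were 14.0, 4.003, and 5.98 in Δ*nsd3*, against 28377, 21418, and 8672 in WT. In none of the 12 Δ*nsd3* libraries of the series did a gene of the stretch exceed 1.42 deposited TPM, while the highest WT value was 487. Whether these genes are still in the genome of this transformant was not tested. Over all 24 libraries, 9 of the 20 genes passed the filter on low values, which they did through WT, so they could hardly come out higher. At 8 h, 6 of them were called lower, beside 5.97% of all genes tested, and this count is not a separate result. WT itself had a mean above 2 rescaled TPM at 8 h for 6 of the 20 genes only. Several of the others had no reads in either strain at 8 h. The most abundant in WT, TRIREDRAFT_112567, had 0.45, 0.0812, and 0.161 rescaled TPM in Δ*nsd3*, against 320.1, 351, and 143 in WT, and TRIREDRAFT_82619 had 0, 0, and 0 rescaled TPM in Δ*nsd3*, against 43.9, 27.5, and 18.0 in WT. The stretch also holds TRIREDRAFT_112560, a Zn2Cys6 transcription factor, with 0, 0, and 0 rescaled TPM in Δ*nsd3*, against 2.42, 1.98, and 2.11 in WT. WT had at least 106-fold more of this transcript than Δ*nsd3*, taking the 3 reads that no reads over the group still allow. For TRIREDRAFT_82619 the same bound was at least 1073-fold.

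**Figure D1:**
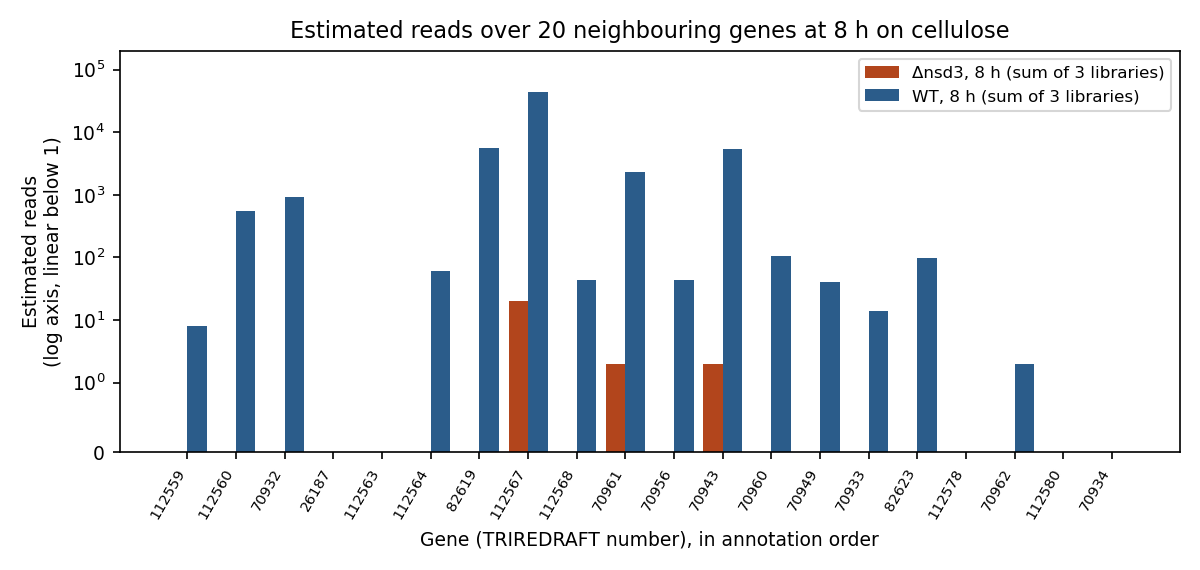
Estimated reads (vertical axis, logarithmic and linear below 1) of 20 neighbouring genes in annotation order at 8 h on cellulose, summed over the 3 Δ*nsd3* libraries and over the 3 WT libraries. WT bars reach 43336 reads for TRIREDRAFT_112567, while Δ*nsd3* has bars at 3 genes only, the highest of 20 reads.

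The cellulase genes listed here differed in direction at 8 h. The list lacks *cel6a*, so it does not describe all cellulase genes. Of 13 cellulose-degrading enzymes and their accessory proteins, 2 were called higher, 4 were called lower and 7 were not called. Over all genes tested, 10.5% were called higher and 5.97% lower. The list median was a log2 fold change of −0.12, beside −0.01 over all genes tested. This median depended on the scaling, and after quantile normalization it was −0.89 beside −0.09 over all genes, with 1 gene called higher and 5 lower. The summed level of the 13 was 17938, 22324, and 23309 rescaled TPM in Δ*nsd3*, against 24491, 23242, and 18156 in WT, with overlapping ranges. The largest single share of the sum was that of *cel7a*, the main cellobiohydrolase, which cuts cellobiose from chain ends. *cel7a* had 7558, 9431, and 9336 rescaled TPM in Δ*nsd3*, against 9971, 10077, and 8082 in WT, and its log2 fold change was −0.10 ± 0.62 (SE, adjusted p = 0.913). That SE comes from the spread over all 24 libraries, and a fit of only the 6 libraries at 8 h gave an SE of 0.26 (adjusted p = 0.783). After quantile normalization the log2 fold change of *cel7a* was −0.89 (adjusted p = 0.236).

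The endoglucanases, which cut inside the cellulose chain, fell apart into different patterns. *cel12a* had 90.6, 322, and 354 rescaled TPM in Δ*nsd3*, against 2261, 1606, and 1034 in WT. All Δ*nsd3* libraries were below all WT libraries, Δ*nsd3* replicate 1 being the lowest, and the log2 fold change was −2.83 ± 0.42 (adjusted p = 1.34e-05). Without Δ*nsd3* replicate 1 it was −2.20, and after quantile normalization −3.48. *cel7b* had 244, 346, and 358 rescaled TPM in Δ*nsd3*, against 795, 667, and 535 in WT, and its groups did not overlap (−1.07 ± 0.19, adjusted p = 1.02e-04). It passed the fold threshold narrowly, and without Δ*nsd3* replicate 1 or WT replicate 1 it was −0.90 or −0.94. *cel5a* had 966, 1079, and 1060.3 rescaled TPM in Δ*nsd3*, against 2038, 2039, and 1391 in WT, also without overlap, but it was not called (−0.80, adjusted p = 0.0841), except after quantile normalization (−1.36, adjusted p = 0.00824). Opposite to these, *cel5b*, a less abundant endoglucanase, had 37.0, 36.3, and 42.4 rescaled TPM in Δ*nsd3*, against 10.5, 11.8, and 10.7 in WT, with every Δ*nsd3* library more than 3-fold above the WT libraries. Its log2 fold change was 1.72 ± 0.21 (adjusted p = 9.02e-07).

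β-Glucosidases cleave cellobiose to glucose, outside or inside the cell. The intracellular *cel1b* had 92.6, 85.6, and 98.8 rescaled TPM in Δ*nsd3*, against 247, 213, and 170.3 in WT, which was a decrease (−1.16 ± 0.30, adjusted p = 0.00323). *cel3c* had 32.7, 52.3, and 59.5 rescaled TPM in Δ*nsd3*, against 109.8, 105, and 88.4 in WT and was called lower too (−1.09 ± 0.17, adjusted p = 2.65e-05), though it came to −0.84 without Δ*nsd3* replicate 1. The other intracellular enzyme, *cel1a*, had 1465, 1594, and 1869.8 rescaled TPM in Δ*nsd3*, against 1050.4, 1090.4, and 892 in WT, and the extracellular *cel3a* had 355, 338, and 351 rescaled TPM in Δ*nsd3*, against 238, 255, and 233 in WT. Both were above WT in all libraries, at log2 fold changes of 0.70 and 0.52 and adjusted p-values of 0.0475 and 0.0204, which is under the fold threshold. After quantile normalization they came to 0.28 and 0.30 (adjusted p = 0.438 and 0.188). Thus *cel1a* and *cel1b* stood on opposite sides of WT.

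The lytic polysaccharide monooxygenases cleave crystalline cellulose by oxidation. *cel61a* had 3374, 3660.0, and 3594 rescaled TPM in Δ*nsd3*, against 1641, 1862, and 1640.5 in WT, without overlap, and a log2 fold change of 1.05 ± 0.39 at an adjusted p of 0.032. Leaving out any of the 6 libraries kept the log2 fold change between 1.02 and 1.11 but gave an adjusted p between 0.054 and 0.0751, and after quantile normalization it came to 0.40 (adjusted p = 0.437). *cel61b* had 889, 2339, and 3328 rescaled TPM in Δ*nsd3*, against 2561, 2039.5, and 1363 in WT. Its Δ*nsd3* replicate 1 was far below the other Δ*nsd3* libraries and the groups overlapped. *cip1* and *cip2*, proteins with a cellulose-binding module that are induced with cellulases, had log2 fold changes of −0.12 and −0.30 and also overlapped. After quantile normalization *cel61b* and *cip1* were at −0.66 and −0.97 (adjusted p = 0.343 and 0.0746).

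**Figure D2:**
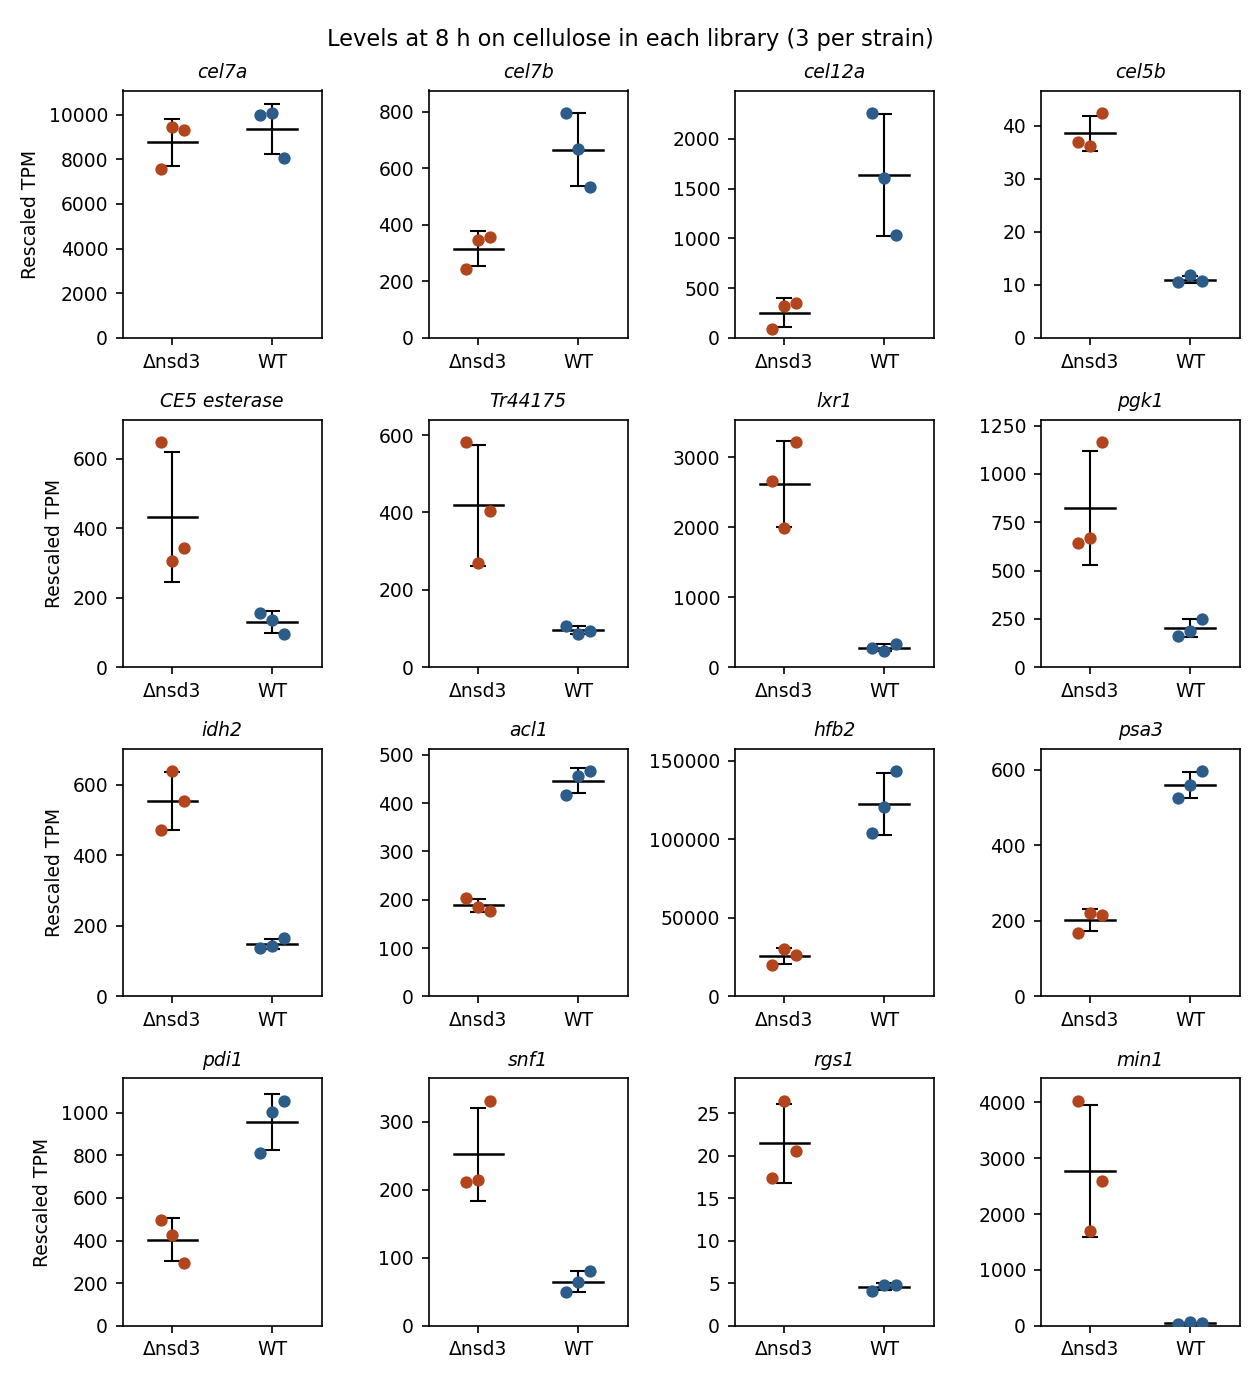
Rescaled TPM (vertical axes from 0) of 16 genes in each of the 3 Δ*nsd3* and 3 WT libraries at 8 h on cellulose. Points are libraries, horizontal lines are means and bars are SD. *cel7a* overlaps between strains, and the other 15 genes do not.

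Of the 4 listed genes of enzymes that act on hemicellulose and its side groups, 1 was called higher and 1 lower, and no gene overlapped between strains. The list holds no xylanase or β-xylosidase gene, so it does not describe those enzymes. Over all genes tested, 10.5% were called higher and 5.97% lower. Over all genes tested, 30.3% were higher and 29.9% lower without overlap. The β-mannanase gene *man5a* had 58.1, 302, and 333 rescaled TPM in Δ*nsd3*, against 816, 583, and 459 in WT (−1.73 ± 0.41, adjusted p = 0.00171). Δ*nsd3* replicate 1 was far below the other Δ*nsd3* libraries, and without it the log2 fold change was −0.92, no longer past the fold threshold. Acetyl xylan esterases remove acetyl groups from xylan and thereby open it to xylanases. The esterase of family CE5 encoded by TRIREDRAFT_54219 had 648, 306, and 344 rescaled TPM in Δ*nsd3*, against 157, 137, and 94.4 in WT, with no overlap and a log2 fold change of 1.68 ± 0.29 (adjusted p = 5.59e-05). *axe1* had 3451, 2769.7, and 2574 rescaled TPM in Δ*nsd3*, against 1612, 1701, and 1381 in WT, and *axe2* had 61.4, 65.3, and 60.1 rescaled TPM in Δ*nsd3*, against 42.5, 41.1, and 49.4 in WT. Both were above WT in all libraries, with log2 fold changes of 0.90 and 0.48 and adjusted p-values of 0.0171 and 0.0224. *axe1* came to 0.25 after quantile normalization (adjusted p = 0.511), and leaving out a library gave adjusted p-values of up to 0.0677 for *axe1* and 0.0792 for *axe2*. So the 3 esterases were above WT in every library, a pattern of 30.3% of all genes tested, and 1 of them passed the fold threshold.

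Of the 4 sugar transporters listed here, 1 was called higher, beside 10.5% of all genes tested. The study counts many more predicted sugar transporters, which are not part of this list, so the list does not describe them. Tr44175 (TRIREDRAFT_44175), a carrier of cellobiose and sophorose, had 582, 270.2, and 405 rescaled TPM in Δ*nsd3*, against 108, 86.2, and 94.5 in WT. The lowest Δ*nsd3* library was more than 2-fold above the highest WT library, and the log2 fold change was 2.05 ± 0.22 (adjusted p = 1.62e-07). The cellobiose carrier Tr67752 had 17.2, 18.6, and 19.4 rescaled TPM in Δ*nsd3*, against 17.1, 19.2, and 21.0 in WT, the sugar transporter Lac1 (TRIREDRAFT_56684) had 28.4, 14.5, and 19.3 rescaled TPM in Δ*nsd3*, against 24.6, 17.2, and 11.7 in WT, and the hexose transporter *hxt1* had 335, 249.6, and 339 rescaled TPM in Δ*nsd3*, against 234, 242, and 303 in WT. These 3 overlapped between strains, with log2 fold changes from −0.05 to 0.24. Siderophore transporters take up chelated iron, and the pair listed here stood on opposite sides of WT. TRIREDRAFT_67026 had 17.2, 14.5, and 17.2 rescaled TPM in Δ*nsd3*, against 8.97, 5.41, and 4.37 in WT and was called higher (1.30 ± 0.23). TRIREDRAFT_78465 had 14.8, 17.4, and 14.1 rescaled TPM in Δ*nsd3*, against 33.6, 30.0, and 29.7 in WT, which was below WT in all libraries (−0.97, adjusted p = 3.52e-04) but under the fold threshold.

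Several genes of central carbon metabolism rose. For *lxr1* the annotation gives only the symbol, which stands for L-xylulose reductase, and which enzyme the gene encodes was not tested. *lxr1* had 2661, 1990.2, and 3216 rescaled TPM in Δ*nsd3*, against 280.0, 224, and 324 in WT. The lowest Δ*nsd3* library was 6-fold above the highest WT library (3.23 ± 0.29, adjusted p = 1.87e-08). The 9 genes listed by symbol under pentose and galactose use, *lxr1* included, had a median of 0.55. *lxr1* was the only one called, so the list holds no called gene beside it. Over all genes tested, 10.5% were called higher. *gal1* (galactokinase, 0.86), *gar1* (galacturonate reductase, 0.74) and *lad1* (L-arabinitol dehydrogenase, 0.55) were higher under the fold threshold with adjusted p-values of 2.19e-04, 0.00305 and 0.0136. *xyl1*, the xylose reductase that starts pentose use, overlapped between strains with 601, 368, and 478 rescaled TPM in Δ*nsd3*, against 422, 395, and 381 in WT.

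Of the genes listed under glycolysis, *pgk1* and *gpd1* rose, and those of the first step did not. *pgk1* (phosphoglycerate kinase) had 642, 666, and 1163 rescaled TPM in Δ*nsd3*, against 161, 189.6, and 251 in WT, with Δ*nsd3* replicate 3 the highest, and a log2 fold change of 2.001 ± 0.26 (adjusted p = 2.35e-06). For *gpd1* the annotation gives only the symbol, which is used for glyceraldehyde-3-phosphate dehydrogenase, a step of glycolysis, and which the study assigns to a glycerol-3-phosphate dehydrogenase of the osmotic stress response. Which of these enzymes it encodes was not tested. *gpd1* had 4712, 4771, and 6808 rescaled TPM in Δ*nsd3*, against 1655, 1895, and 2571 in WT (1.42 ± 0.23, adjusted p = 4.15e-05), which came to 0.70 after quantile normalization. *eno1* (enolase) had 1176, 1291, and 1766 rescaled TPM in Δ*nsd3*, against 684, 859, and 1148 in WT, and stayed under the fold threshold (0.66, adjusted p = 0.0129). *hxk1* (hexokinase) had 151, 169, and 173 rescaled TPM in Δ*nsd3*, against 196, 219, and 223 in WT, lower in all Δ*nsd3* libraries by a log2 fold change of −0.37. The hexokinase gene TRIREDRAFT_80231 was close to WT, with 83.0, 73.9, and 79.3 rescaled TPM in Δ*nsd3*, against 87.1, 83.3, and 88.1 in WT.

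The genes around citrate moved in opposite directions. *idh2*, a subunit of the isocitrate dehydrogenase of the citric acid cycle, had 473, 638, and 553 rescaled TPM in Δ*nsd3*, against 137, 144, and 166 in WT and rose (1.88 ± 0.20, adjusted p = 1.80e-07). *acl1* and *acl2* encode the subunits of ATP citrate lyase, which makes acetyl-CoA for fatty acids and sterols in the cytosol. *acl1* had 203, 185, and 178 rescaled TPM in Δ*nsd3*, against 417, 456, and 466 in WT, and *acl2* had 158, 137, and 137 rescaled TPM in Δ*nsd3*, against 289, 299, and 331 in WT. Both fell by nearly the same amount (−1.24 ± 0.12 and −1.08 ± 0.11, adjusted p = 5.16e-08 and 1.33e-07), with little spread within either strain. *acs1*, which makes acetyl-CoA from acetate, and *acu3*, the isocitrate lyase of the glyoxylate cycle, were higher under the fold threshold (0.40 and 0.52, adjusted p = 0.0404 and 0.0129). *cit1* (citrate synthase) and *acu9* (malate synthase) overlapped between strains. *ugp1*, which makes UDP-glucose for glycogen and the cell wall, had 254, 212, and 259 rescaled TPM in Δ*nsd3*, against 111, 112, and 119 in WT and just passed the fold threshold (1.07 ± 0.14), as it did not without rescaling (0.92).

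The proteasome degrades proteins marked with ubiquitin, and its 6 genes listed by symbol were all lower. Subunit genes without a symbol are not in this list, so it does not describe the whole proteasome. These 6 subunits of its 20S core were lower in every Δ*nsd3* library than in any WT library, whereas 29.9% of all genes tested had this pattern. Of the 6, 4 were called lower, beside 5.97% of all genes tested. The list median was −1.12 beside −0.01 over all genes. The direction was the same under each scaling tried, and without rescaling or with quantile normalization all 6 were called. The α subunit gene *psa3* had 169, 221, and 217 rescaled TPM in Δ*nsd3*, against 527, 559, and 596 in WT (−1.47 ± 0.15, adjusted p = 1.36e-07). *psa5* had 188, 261, and 251 rescaled TPM in Δ*nsd3*, against 531, 520.2, and 557 in WT (−1.21 ± 0.13, adjusted p = 1.70e-07). The β subunit gene *psb5* had 106, 127, and 137 rescaled TPM in Δ*nsd3*, against 247, 255, and 277 in WT (−1.08 ± 0.14), and came to −0.97 without Δ*nsd3* replicate 1. Of the others, *psa7* was called (−1.16), and *psa6* (−0.95) and *psb4* (−0.90) were under the fold threshold with adjusted p-values of 3.97e-05 and 3.88e-06.

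Protein folding and secretion was represented by 13 genes, of which 1 was called lower, beside 5.97% of all genes tested. *pdi1*, the disulfide isomerase of the endoplasmic reticulum, had 494, 424, and 295 rescaled TPM in Δ*nsd3*, against 811, 1003, and 1057 in WT (−1.26 ± 0.17, adjusted p = 3.98e-06). The chaperone gene *bip1* did not follow it, with 762, 574, and 409 rescaled TPM in Δ*nsd3*, against 401, 475, and 482 in WT, and its log2 fold change was 0.32 (adjusted p = 0.131). *ire1*, the sensor of unfolded proteins, and *ptc2*, a phosphatase that acts on the same pathway, were lower under the fold threshold (−0.39 and −0.62, adjusted p = 0.0306 and 4.75e-05). The vesicle genes *snc1* and *sar1* were higher under it (0.53 and 0.45, adjusted p = 0.034 and 0.0213).

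Hydrophobins are small secreted proteins that coat hyphae and spores and make them water-repellent. *hfb2* had 20159, 30209.6, and 26382 rescaled TPM in Δ*nsd3*, against 103879, 120560.0, and 143257 in WT, the most abundant transcript of all in WT. It fell by a log2 fold change of −2.27 ± 0.26 (adjusted p = 4.08e-07), or −1.43 after quantile normalization. *hfb3* had 3079, 4489.6, and 4563 rescaled TPM in Δ*nsd3*, against 9886, 11874, and 16718 in WT and fell (−1.65 ± 0.24, adjusted p = 1.07e-05, or −2.38 after quantile normalization), while *hfb1* was scarce in both strains, with 3.002, 2.89, and 3.51 rescaled TPM in Δ*nsd3*, against 7.50, 2.29, and 2.66 in WT. *hex1*, the protein of the Woronin bodies that plug damaged hyphae, had 3709, 3877, and 4019 rescaled TPM in Δ*nsd3*, against 7477, 8255, and 11272 in WT and fell (−1.20 ± 0.16, adjusted p = 2.35e-06). The 5 other genes of polarity and the cytoskeleton were all below WT in every library, as were 29.9% of all genes tested, at log2 fold changes between −0.56 and −0.28, and none passed the fold threshold.

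Chitinases and N-acetylglucosaminidases take part in remodelling the chitin of the fungal wall. Of 15 tested, only *nag2* was called higher, beside 10.5% of all genes tested. *nag2* had 318, 412, and 626 rescaled TPM in Δ*nsd3*, against 49.8, 88.6, and 208 in WT (2.15 ± 0.45, adjusted p = 5.14e-04). *nag1*, encoding another N-acetylglucosaminidase, was on the opposite side, with 31.6, 32.8, and 32.4 rescaled TPM in Δ*nsd3*, against 42.5, 54.6, and 57.3 in WT (−0.65, adjusted p = 0.00369). *chi18-2* had 94.1, 114, and 203 rescaled TPM in Δ*nsd3*, against 18.4, 73.2, and 181 in WT. Its WT libraries spread over nearly 10-fold and overlapped with Δ*nsd3*, so its log2 fold change of 1.03 was not distinguishable (adjusted p = 0.186).

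**Figure D3:**
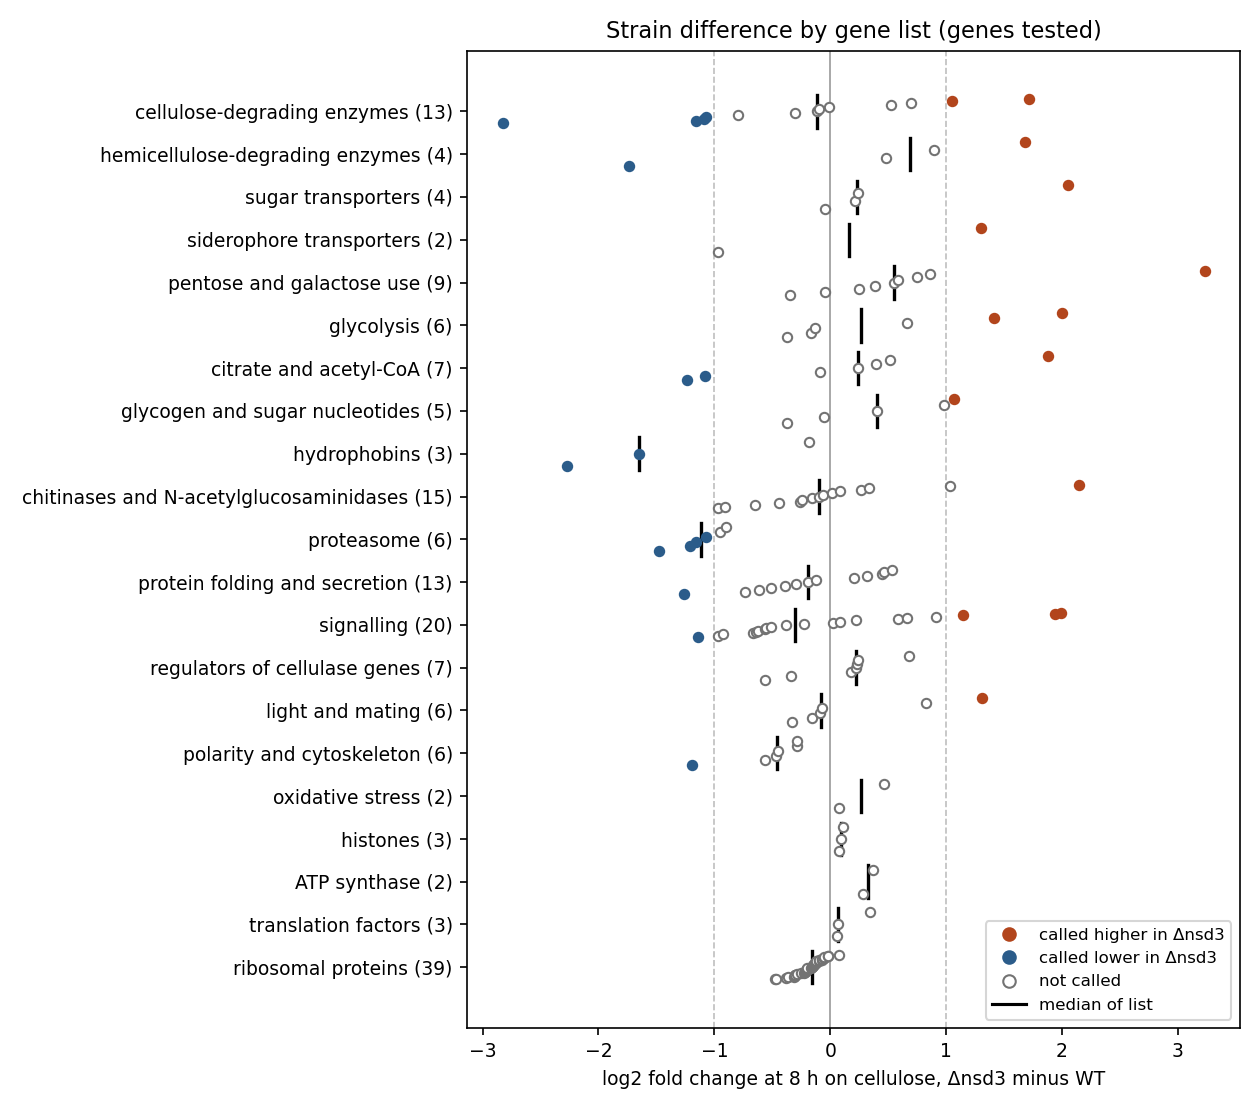
log2 fold change at 8 h on cellulose (horizontal axis, Δ*nsd3* minus WT) of the genes tested in 21 lists, whose sizes stand in brackets. Points are genes, filled where called, black ticks are list medians and dashed lines mark the fold threshold. The 6 proteasome genes lie between −1.47 and −0.90, while the 13 cellulose-degrading enzymes spread from −2.83 to 1.72.

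Genes listed under signal transduction went in both directions. *snf1*, the kinase that in yeast relieves glucose repression, had 211, 214, and 331 rescaled TPM in Δ*nsd3*, against 49.5, 63.8, and 80.1 in WT (1.94 ± 0.34, adjusted p = 8.74e-05). *rgs1*, a regulator that turns G protein signals off, had 17.3, 26.5, and 20.6 rescaled TPM in Δ*nsd3*, against 4.12, 4.84, and 4.77 in WT (1.99 ± 0.26, adjusted p = 1.94e-06), and the G protein α subunit gene *gna2* had 66.4, 66.9, and 73.6 rescaled TPM in Δ*nsd3*, against 28.4, 32.6, and 30.9 in WT (1.15 ± 0.29, adjusted p = 0.003). The groups of these 3 genes were well apart. *tmk3*, the MAP kinase of the osmotic stress pathway, was higher under the fold threshold, with 252, 235, and 282 rescaled TPM in Δ*nsd3*, against 116, 138, and 153 in WT (0.92, adjusted p = 6.64e-04). *cot1*, a kinase needed for hyphal tip growth, had 29.3, 24.9, and 24.6 rescaled TPM in Δ*nsd3*, against 55.6, 62.8, and 59.0 in WT and fell (−1.14 ± 0.15, adjusted p = 2.12e-06). *ras1* (−0.92), the histidine kinase gene *nik1* (−0.97), *tmk2* (−0.64), *tmk1* (−0.51), *gna1* (−0.56) and *pkac1* (−0.63) were lower under the fold threshold, with adjusted p-values between 1.22e-04 and 0.036. Of the 20 signalling genes, 3 were called higher and 1 lower, beside 10.5% and 5.97% of all genes tested. Without rescaling 3 were called lower. At an adjusted p under 0.05 (limma), 5 of the 20 were higher and 9 were lower. Over all 7904 genes tested, 1961 were higher and 1774 lower at that level.

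None of the 7 regulators of cellulase genes listed here was called by limma, and 3 of them had an adjusted p-value below 0.05. Of all 7904 genes tested, 1961 were higher and 1774 lower at that level, so such a p-value was common. *xyr1*, the activator, had 249.5, 175, and 263 rescaled TPM in Δ*nsd3*, against 186, 202, and 189 in WT, and the ranges overlapped (0.23 ± 0.21, adjusted p = 0.376). *cre1*, the repressor, had 167, 177, and 171 rescaled TPM in Δ*nsd3*, against 91.8, 108, and 122 in WT. It was above WT in all libraries but under the fold threshold (0.68, adjusted p = 0.0104). *hap3* and *hap5*, parts of the complex that binds CCAAT boxes, were lower under it (−0.56 and −0.34, adjusted p = 0.0137 and 0.00775), and *hap2*, *creb* and *crec* had log2 fold changes from 0.18 to 0.24. The study lists *nsd3* and 3 further genes as putative homologs of yeast Mot3p. Of the further genes, TRIREDRAFT_112342 was at −0.28 and TRIREDRAFT_58897 at −0.06, and neither was called. TRIREDRAFT_112342 was below WT in all libraries, as were 29.9% of all genes tested. TRIREDRAFT_36453 is not reported here.

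The order of the most abundant transcripts differed between the strains. In WT the 5 highest were *hfb2*, *hfb3*, *cel7a*, *hex1* and TRIREDRAFT_110879. In Δ*nsd3* they were TRIREDRAFT_110879, *hfb2*, TRIREDRAFT_73516, TRIREDRAFT_81136 and TRIREDRAFT_44967, the genes without a symbol being picked for this after their values were seen. TRIREDRAFT_110879 had 22945, 33462, and 38305 rescaled TPM in Δ*nsd3*, against 1993, 6276, and 11967 in WT. Its groups did not overlap, but the WT libraries spread over 6-fold, and its log2 fold change of 2.54 ± 0.56 (adjusted p = 8.11e-04) came to 1.83 without WT replicate 1 and to 3.13 without WT replicate 3. TRIREDRAFT_81136 had 7647, 9590.1, and 11139 rescaled TPM in Δ*nsd3*, against 551, 701, and 918 in WT (3.72 ± 0.26, adjusted p = 7.89e-10). TRIREDRAFT_44967 had 6623, 7709, and 12191 in Δ*nsd3*, against 440, 649, and 903 in WT (3.74 ± 0.41, adjusted p = 2.79e-07). On glycerol the strain effect of TRIREDRAFT_110879 was −0.50, and those of TRIREDRAFT_81136 and TRIREDRAFT_44967 were 1.82 and 1.21.

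The largest changes were in genes without a symbol. The exception was *min1*, whose function the annotation used here does not give, with 4029, 1698, and 2589 rescaled TPM in Δ*nsd3*, against 35.2, 57.9, and 39.2 in WT, a log2 fold change of 5.89 ± 0.41 (adjusted p = 7.52e-10). TRIREDRAFT_5084 had 653, 609.7, and 1009 rescaled TPM in Δ*nsd3*, against 14.4, 9.58, and 12.7 in WT (5.82 ± 0.30), and TRIREDRAFT_54616 had 688, 1338, and 1138 rescaled TPM in Δ*nsd3*, against 17.5, 17.7, and 21.3 in WT (5.68 ± 0.21). In these genes the lowest Δ*nsd3* library was more than 25-fold above the highest WT library. TRIREDRAFT_59372 was almost silent in WT, with 43.3, 44.7, and 58.1 rescaled TPM in Δ*nsd3*, against 0.102, 0.0696, and 0.0851 in WT. Its 8 estimated reads over the WT libraries, against 2659 in Δ*nsd3*, give a 572-fold difference (95% interval 290 to 1326, counting error only). TRIREDRAFT_73519 had 1145, 1401, and 2123 rescaled TPM in Δ*nsd3*, against 25.9, 57.5, and 111 in WT, and TRIREDRAFT_81819 had 199, 266, and 553 rescaled TPM in Δ*nsd3*, against 2.13, 6.23, and 21.5 in WT, the WT libraries of both being uneven. Without WT replicate 1 the log2 fold change of TRIREDRAFT_81819 was 4.60, and without WT replicate 3 it was 6.02, against 5.27 with all libraries. The other 4 of the 10 largest increases, TRIREDRAFT_4454, TRIREDRAFT_74020, TRIREDRAFT_21876 and TRIREDRAFT_67538, had log2 fold changes of 5.59, 4.92, 4.91 and 4.67.

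On the lower side, beside *nsd3* and the stretch, TRIREDRAFT_69692 had 4.30, 11.7, and 6.92 rescaled TPM in Δ*nsd3*, against 165, 196, and 216 in WT (−4.57 ± 0.31, adjusted p = 4.67e-10). TRIREDRAFT_123079, more abundant in WT, had 25.9, 56.6, and 36.0 rescaled TPM in Δ*nsd3*, against 514, 585, and 618 in WT (−3.89 ± 0.40), and TRIREDRAFT_54768 had 12.7, 14.3, and 11.5 rescaled TPM in Δ*nsd3*, against 166, 168, and 241 in WT (−3.78 ± 0.24). None of the 3 overlapped between strains. TRIREDRAFT_66788, TRIREDRAFT_105156, TRIREDRAFT_70803 and TRIREDRAFT_122629 completed the 10 largest decreases, with log2 fold changes of −4.34, −3.96, −3.96 and −3.88. For TRIREDRAFT_105156, the 8 estimated reads in Δ*nsd3* against 2234 in WT correspond to a 162-fold lower level (95% interval 82.3 to 377, counting error only).

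Called genes were in places next to each other. In the order of the annotation, 11 runs of at least 4 adjacent genes were called higher and 3 runs were called lower, none of them inside the stretch without reads. The longest were 2 runs of 7 genes. The run from TRIREDRAFT_58525 to TRIREDRAFT_121107 had log2 fold changes from 1.597 to 4.38. Within it, TRIREDRAFT_76620 had 444, 189, and 251 rescaled TPM in Δ*nsd3*, against 12.4, 12.1, and 12.5 in WT, and TRIREDRAFT_58698 had 62.8, 57.5, and 124 rescaled TPM in Δ*nsd3*, against 3.36, 4.70, and 5.34 in WT. The 7 genes had a median strain effect of 0.04 on glycerol and 1.02 at 48 h. The run from TRIREDRAFT_76227 to TRIREDRAFT_76230 had log2 fold changes from 1.25 to 4.004. Its most changed gene, TRIREDRAFT_3055, had 99.8, 68.3, and 89.1 rescaled TPM in Δ*nsd3*, against 5.05, 4.92, and 3.26 in WT, and its most abundant, TRIREDRAFT_76230, had 3209.9, 1609, and 1200.4 rescaled TPM in Δ*nsd3*, against 691, 508, and 379 in WT. A lower run of 5 genes around TRIREDRAFT_54768 had log2 fold changes from −3.78 to −1.03, and TRIREDRAFT_44362 within it had 26.9, 17.3, and 19.0 rescaled TPM in Δ*nsd3*, against 128, 130.2, and 190.5 in WT. These genes have no symbol. The runs were chosen by both the calls and the positions, and no chance level was computed for them. In the run that starts with TRIREDRAFT_73516, that gene itself had 15053, 15567, and 18774 rescaled TPM in Δ*nsd3*, against 1983, 1480.2, and 1545 in WT, an abundant transcript in either strain.

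**Figure D4:**
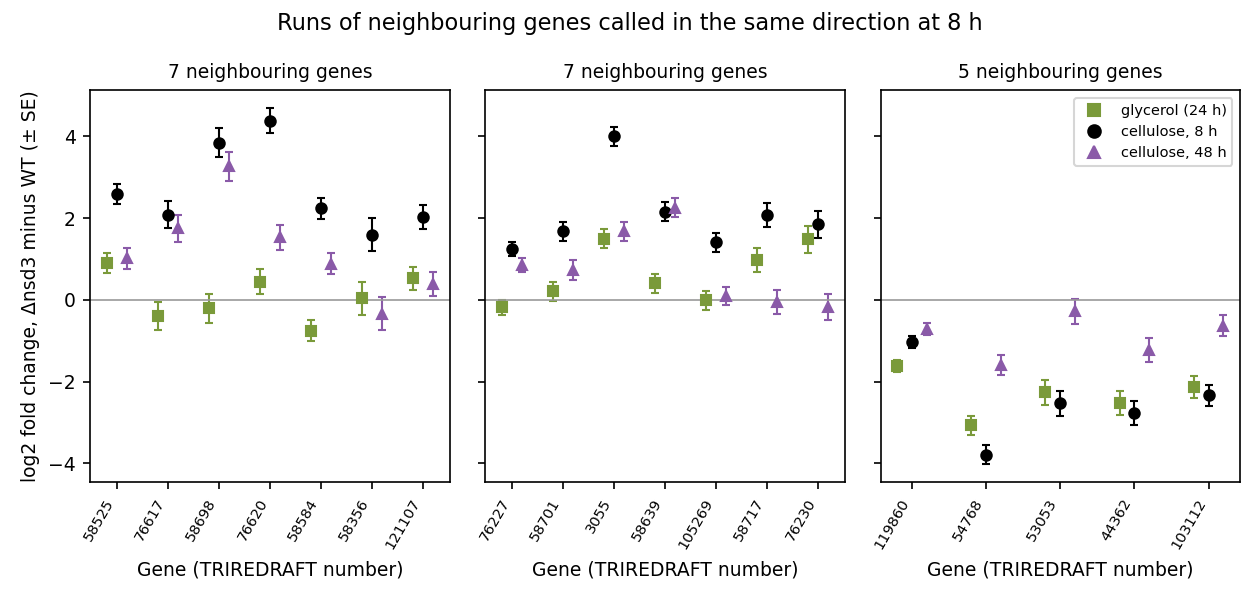
log2 fold change (vertical axis, Δ*nsd3* minus WT, ± SE, 3 libraries per strain) of 3 runs of neighbouring genes on glycerol and at 8 h and 48 h on cellulose. At 8 h the left run reaches 4.38, the middle run 4.004, and the right run goes down to −3.78.

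The glycerol libraries show which of these strain effects were present in mycelium that had not met cellulose. *pgk1* differed between strains by 0.07 on glycerol, against 2.001 at 8 h, and the difference between these effects passed the test (1.93, adjusted p = 8.46e-04). The same held for *gpd1* (−0.17 on glycerol, difference 1.59, adjusted p = 0.00171), *snf1* (−0.15, 2.09, 0.00372) and *nag2* (−1.01, 3.15, 0.0013). The genes of cellulose use that differed from glycerol included decreases and increases. *cel12a* differed by 0.04 on glycerol (difference −2.87, adjusted p = 0.00174), *cel7b* by 0.12 (adjusted p = 0.00326) and Tr44175 by 0.70 (adjusted p = 0.00327). Other effects had the same direction on glycerol, and their difference from 8 h did not pass the test. These were *min1* (5.43 on glycerol, difference 0.46), *rgs1* (2.25, −0.26), *idh2* (1.73, 0.15), *hfb2* (−1.88, −0.39), *hfb3* (−1.96, 0.30), *pdi1* (−1.19, −0.08) and *hex1* (−1.10, −0.10). Over all genes tested, 22.5% passed this difference test. It was passed, with the larger effect at 8 h, by 561 of the 831 genes called higher (67.5%) and by 169 of the 472 called lower (35.8%), shares that the choice of genes on the 8 h values raises.

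Between 8 h and 48 h on cellulose, 24.2% of the genes tested differed in their strain effect. Several enzyme genes that were above WT at 8 h were below it at 48 h, with the main rescaling. After quantile normalization the 8 h effects of *axe1*, *cel3a* and *cel61a* were 0.25, 0.30 and 0.40 (limma adjusted p = 0.511, 0.188 and 0.437). For the CE5 esterase the log2 fold change was 1.68 at 8 h and −1.29 at 48 h (difference 2.98, adjusted p = 3.53e-05), for *axe1* it was 0.90 and −1.89 (adjusted p = 9.69e-05), for *cel3a* 0.52 and −0.94 (adjusted p = 3.60e-04) and for *cel61a* 1.05 and −0.83 (adjusted p = 0.0179). The decreases of *cel12a* and *man5a* had effects of −1.76 and −1.81 at 48 h, and the increase of Tr44175 had 2.14 there (adjusted p of the difference 0.198, 0.936 and 0.861). The lower levels at 8 h of *acl1*, *acl2* and *cot1* were not seen at 48 h, with effects of −0.00047, 0.08 and 0.20 (adjusted p of the difference 3.89e-05, 3.86e-05 and 1.22e-04). The proteasome genes were closer to WT at 48 h as well, with a list median of −0.29 there, and 5 of the 6 differences passed the test. *min1* had a smaller effect at 48 h (2.32, adjusted p = 2.004e-04), and that of TRIREDRAFT_5084 was −0.14 there (adjusted p = 1.09e-08).

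**Figure D5:**
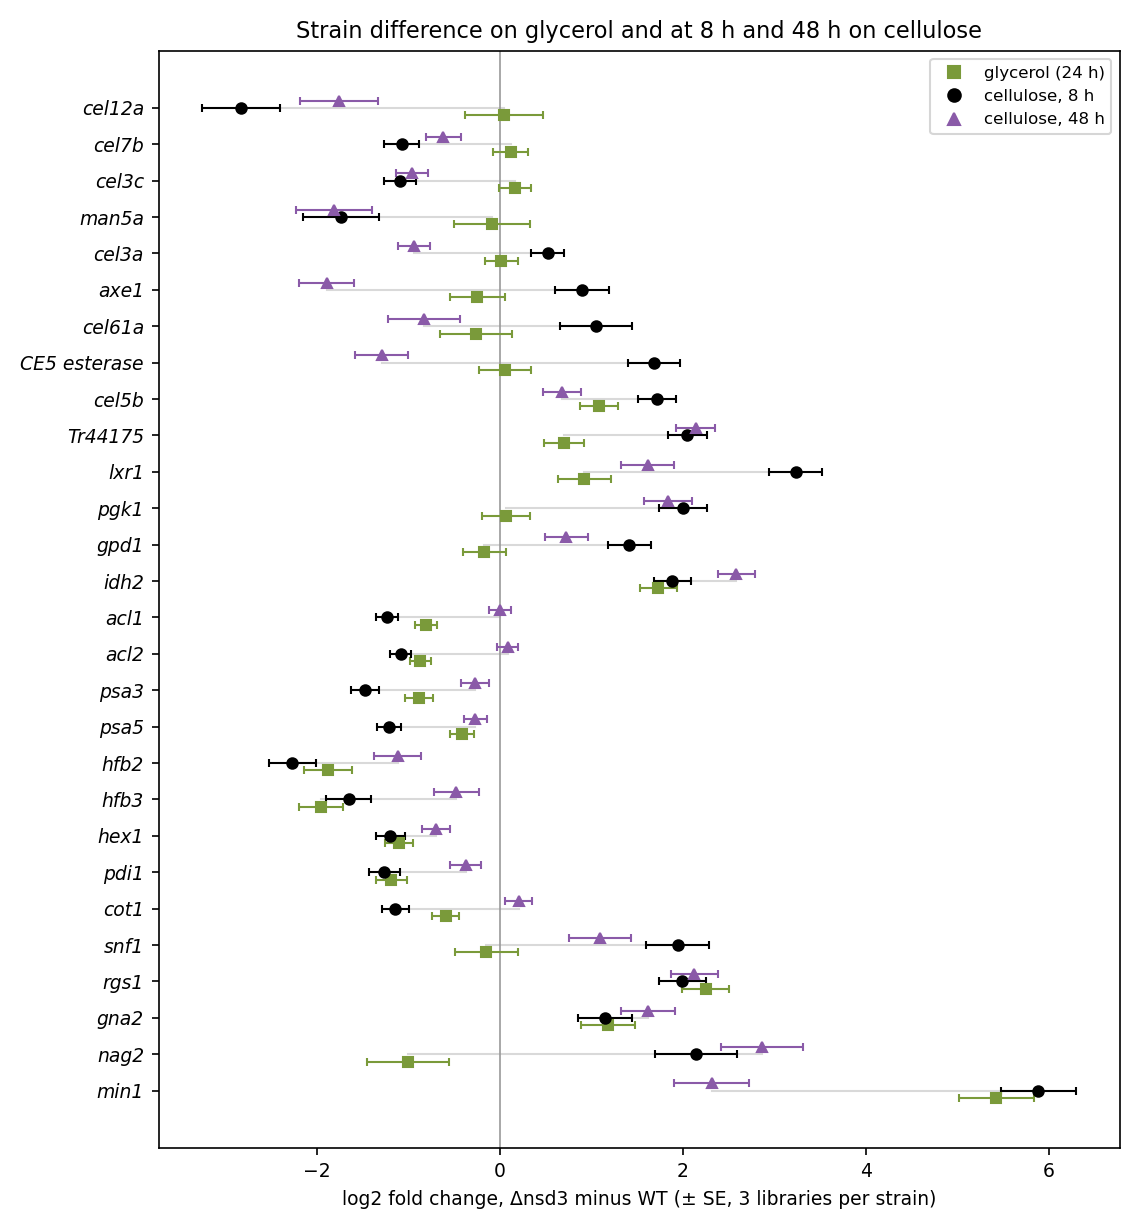
log2 fold change (horizontal axis, Δ*nsd3* minus WT, ± SE, 3 libraries per strain) of 28 named genes on glycerol and at 8 h and 48 h on cellulose. *cel12a* and *pgk1* lie near 0 on glycerol (0.04 and 0.07) and apart from it at 8 h, and the CE5 esterase and *axe1* change side between 8 h and 48 h. After quantile normalization the 8 h effect of *axe1* was 0.25 (limma adjusted p = 0.511).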

How the data were processed

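RNA of WT and Δ*nsd3* mycelium was sequenced on glycerol, glucose and cellulose (8 h and 48 h), in 8 groups of 3 libraries. The authors trimmed reads (Trim Galore 0.6.7), mapped them to the *T. reesei* genome (HISAT2 2.2.1), counted them per gene (featureCounts) and deposited TPM for 8755 genes. TPM are not counts and share a nearly fixed total per library, so a dominant transcript lowers the TPM of all others.

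Libraries were rescaled by the median of ratios. Genes with at least 1 rescaled TPM in at least 3 of 24 libraries (7904) were tested on log2(rescaled TPM + 1) with limma 3.58.1 in R 4.3.3. The model had a mean per group over all 24 libraries and an eBayes trend. P-values are two-sided, with Benjamini-Hochberg adjustment over all genes of a contrast. The differences of the strain effect at 8 h from those at 48 h and on glycerol were contrasts of the same model. Exact permutation tests were not used, since 3 against 3 libraries cannot give less than p = 0.1.

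Reads were estimated from TPM, the gene span and the TPM step that 1 read makes. Between 76.6% and 82.0% of the low values at 8 h came within 0.1 of a whole read. Exact intervals and the floor of 3 reads cover counting error only. On simulated data with 7689 genes, the model called 99 of 100 genes changed by a log2 of 3, 93 of 100 changed by a log2 of 1.5, and 1 unchanged gene at 8 h.

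Gene names come from RefSeq (*T. reesei* QM6a, 8750 of 8755 identifiers matched, 225 with a symbol) and from the study's text. Product names were not used here, so the 21 gene lists were built from symbols instead of the keywords that had been planned, and most genes belong to none. Genes were named by a rule: *nsd3*, the 10 largest increases and decreases among called genes without overlap between strains, called list members, genes with an identifier in the study, regulators of cellulase genes, and the stretch without reads. The members and lists were chosen with earlier results of these data known. Alternatives changed the rescaling, pseudocount, filter, samples fitted, replicate block, trend and weights, or left out a library. The chromatin data of the study were not used here. Results for some genes are not reported here. Scripts ran in Python 3.11.15 with pandas 2.3.3 and numpy 2.4.6, and figures were drawn with matplotlib 3.10.9.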

Additional observations from a re-analysis of the deposited data

Results flagged for a closer look

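In the following genes, all called at 8 h, the strain effect differed between 8 h and 48 h on cellulose in the limma contrast of the 2 effects (adjusted p under 0.05). Values are the effect at 8 h minus that at 48 h, on the log2 scale.

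Among enzymes and metabolism, the difference was 2.98 for the CE5 esterase TRIREDRAFT_54219, 1.88 for *cel61a*, 1.61 for *lxr1* and 1.04 for *cel5b*, all with the higher effect at 8 h. It was −1.24 for *acl1* and −1.17 for *acl2*. The proteasome genes had −1.20 (*psa3*), −0.94 (*psa5*), −0.85 (*psa7*) and −0.62 (*psb5*). The hydrophobins had −1.15 (*hfb2*) and −1.18 (*hfb3*), and *pdi1* and *cot1* had −0.89 and −1.35.

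Among the genes with the largest changes, the difference was 3.57 for *min1*, 5.96 for TRIREDRAFT_5084, 3.39 for TRIREDRAFT_67538, 2.65 for TRIREDRAFT_21876, 1.46 for TRIREDRAFT_54616 and 1.22 for TRIREDRAFT_59372. It was −3.89 for TRIREDRAFT_69692, −2.75 for TRIREDRAFT_66788, −2.44 for TRIREDRAFT_122629, −2.19 for TRIREDRAFT_54768, −2.07 for TRIREDRAFT_70803 and −1.94 for TRIREDRAFT_123079.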

How the results depend on the processing

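Of the 59 called genes whose values the text rests on, 50 kept their call under all 17 alternatives that could test them, and none changed direction under any of these. The other 9 are those named with such a value in the text, together with TRIREDRAFT_67026 (0.94 with a pseudocount of 5) and TRIREDRAFT_112560 (−0.52 with it). Genes called lower numbered 298 with a pseudocount of 5, against 472, and leaving out a library gave 772 to 868 higher and 456 to 493 lower, against 831 and 472. Genes whose strain effect differed from that on glycerol numbered 3041 with the TPM as deposited and 3256 with array weights, against 1778, and those that differed between 8 h and 48 h numbered 3031 with array weights, against 1913; the cause was not tested. Whether replicate numbers pair the samples could not be settled. Same-numbered libraries of the strains deviated together by 0.21, −0.09, and 0.24. The values of replicates 1 and 3 were the highest of all pairs, while Δ*nsd3* replicate 2 correlated best with WT replicate 3. The main model used no pairing. With the replicate block, 831 genes were called higher and 472 lower, the differences numbered 2146 (48 h) and 1958 (glycerol), *nsd3* stayed at −6.21, and *cel61a* lost its call (adjusted p = 0.0578). Depth limits genes of few reads, whose fold changes follow the pseudocount, as *nsd3* did with −9.15 at 0.1 and −4.01 at 5.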

Other observations

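The lists of protein synthesis depended on the scaling at 8 h. None of the 39 ribosomal protein genes was called, 38 had a log2 fold change below 0, and their median was −0.16 beside −0.01 over all genes. With the TPM as deposited all 39 were below 0, and 14 had an adjusted p under 0.05 (limma), against 1 after rescaling. After quantile normalization 30 of the 39 were lower at an adjusted p under 0.05, with a median of −0.46 and none called. The 3 translation factor genes were between 0.06 and 0.34 and the 2 ATP synthase genes at 0.29 and 0.37. The 3 histone genes were between 0.08 and 0.11 after rescaling, and all 3 were below 0 without it. After quantile normalization all 3 were lower at an adjusted p under 0.05, with a median of −0.44, and the translation factor gene *tef1a* was at −0.79 (adjusted p = 4.99e-04), against 0.06 after rescaling.

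Of 6 genes of light response and mating, only the mating type gene *mata1* was called higher, beside 10.5% of all genes tested. *mata1* had 33.0, 18.2, and 16.1 rescaled TPM in Δ*nsd3*, against 7.71, 9.203, and 7.21 in WT (1.31 ± 0.22, adjusted p = 6.18e-05). The blue light receptor genes *blr1* and *blr2* were at −0.09 and −0.16. *env1*, a photoreceptor gene, had 542, 536, and 543 rescaled TPM in Δ*nsd3*, against 152, 400.4, and 464 in WT, and its log2 fold change of 0.82 did not pass the test (adjusted p = 0.0533). The superoxide dismutase gene *sod1* overlapped between strains at 8 h (0.46) and had an effect of 1.98 at 48 h (adjusted p of the difference 0.006). *dpm1*, the dolichol phosphate mannose synthase gene, had 301, 244, and 247 rescaled TPM in Δ*nsd3*, against 122, 133, and 144 in WT, just under the fold threshold (0.98, adjusted p = 9.26e-07), and the glycogen genes *gph1* and *gys1* had 0.40 and −0.06.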
